A study of Mus musculus with 28 samples.

Results

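The 762 regions described here were called as open chromatin at day 5 of reprogramming and almost nowhere else. Peaks of 28 ATAC-seq libraries were merged into 172177 regions. A region was taken when it was called in 0 of 4 libraries of mouse embryonic fibroblasts (MEFs), in at least 10 of 12 libraries of day 5 cells and in at most 2 of 12 libraries of day 10 cells. A call by a library means that it held a peak sharing 1 bp or more with the region. These calls chose the regions, so the difference in calls between the days describes the choice and was not tested. They are called day 5-only regions below, because the lists record where a peak was called and not where chromatin was closed.

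ATAC-seq uses a transposase that cuts accessible DNA and inserts sequencing adapters, so that fragments pile up at nucleosome-poor promoters and enhancers. All libraries came from MEFs of 12.5-day embryos (strain background V6.5 129XBI/6) that lacked Tet2 (Tet2-/-) and carried the reprogramming factors OKSM under doxycycline control with the rtTA activator. The 4 control libraries were from untreated MEFs (day 0), for which the labels name no sorting. The other 24 libraries were made from cells infected with a pMXs retrovirus, which was empty or carried wild-type Tet2 (Tet2-WT) or a mutant Tet2 that the series calls stalling (Tet2-E). Those cells were grown on mitotically inactive feeders in LIF, PD0325901, CHIR99021 and doxycycline and sorted on SSEA1-RFP at day 5 or day 10, with 4 libraries per vector and day. Feeders are themselves MEFs, and a sort on SSEA1 keeps only part of a reprogramming culture. Nothing in the labels says that replicates were separate cultures or embryos, so p-values measure the spread between libraries, which may be technical.

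Reprogramming by OKSM (Oct4, Klf4, Sox2 and c-Myc) passes through intermediate stages. Regulatory elements of fibroblasts are silenced, elements of the pluripotency network are engaged, and some elements open in intermediate cells and are later lost. SSEA1 is a surface carbohydrate that appears on cells on the way to pluripotency. TET enzymes oxidise 5-methylcytosine stepwise at regulatory DNA, and a stalling mutant makes the first oxidation product but few of the later ones. Wild-type and stalling Tet2 therefore separate the first step from those that follow it in cells with no Tet2 of their own.

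Day 10 libraries were shallower than day 5 libraries by the median. The background pileup is the number of fragments expected at a position of the genome, as inferred from the peak lists. Its median was 0.852 (range 0.746 to 1.037) over the 12 day 5 libraries. Over the 12 day 10 libraries the median was 0.501 (range 0.361 to 0.768), so the ranges overlapped slightly. The 4 MEF libraries were also shallower than day 5, with a median of 0.4795 (range 0.394 to 0.66). Day 5 lists held 41414 to 60154 peaks on the 20 chromosomes used, day 10 lists 27809 to 50552 and MEF lists 41345 to 72140. The 3 day 10 libraries numbered 4 had the shortest list of each vector (27809, 30794 and 31170 peaks). When every list was cut to its 27809 strongest peaks and the choice repeated, 254 regions were day 5-only, and 56 of the 762 were among them. Of the others, 705 were then called in fewer than 10 day 5 libraries, with a median of 5 day 5 and 0 day 10 libraries over all 762. Most of the 762 thus met the day 5 limit only with peaks ranked below the length of the shortest list. Without the libraries numbered 3 or 4 in every group, and with limits of at least 8 and at most 1 of 9 libraries, 438 and 464 regions were chosen. How far depth set the absence of calls at day 10 or in MEFs was not tested.

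Among 9108 regions called in 0 MEF and at least 10 day 5 libraries, 8.37% were day 5-only. Another 4093 (44.9%) were called in at least 10 of 12 day 10 libraries and are called kept regions. The remaining 4253 (46.7%) were called in 3 to 9 day 10 libraries. The number of regions rose with each further day 10 library, from 132 called in none to 2196 called in all 12, so the day 5-only regions were the low end of a continuous range. On the full lists, 126 regions were called in 0 MEF, at most 2 day 5 and at least 10 day 10 libraries. On lists of equal length there were 195 such regions, beside 254 day 5-only regions.

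Of the 762 regions, 154 were called in 12 of 12 day 5 libraries, 247 in 11 and 361 in 10. No day 10 library called 132 of them, 1 library called 299 and 2 libraries called 331. Regions just outside the limits looked like those just inside. The 482 regions in 9 day 5 libraries and at most 2 day 10 libraries had a median day 5 percentile of 42.5, against 44.7 for the 361 in 10. The percentile is the rank of the peak within its own list by the authors' fold, which is the ratio of summit pileup plus 1 to local background plus 1. The 434 regions in 3 day 10 libraries had a median percentile of 51.6, against 50.2 for the 331 in 2. Regions with the same day 5 and day 10 counts but called in MEFs numbered 65, 36 and 49 for 1, 2 and 3 MEF libraries and 230 for all 4.

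The number of the 762 regions called by each library is the measurement the choice rests on. With the empty vector, the 4 day 5 libraries called 588, 638, 736 and 672 of them. With Tet2-WT they called 708, 708, 723 and 712, the narrowest spread of the 3 vectors. With Tet2-E they called 656, 712, 681 and 641. At day 10 the libraries called 110, 64, 69 and 55 with the empty vector, 110, 123, 83 and 37 with Tet2-WT, and 119, 104, 56 and 31 with Tet2-E. The libraries numbered 4 called the fewest with each vector. Kept regions were called by 96.0% to 99.3% in each day 5 library and 85.6% to 99.2% in each day 10 library.

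**Figure D1:**
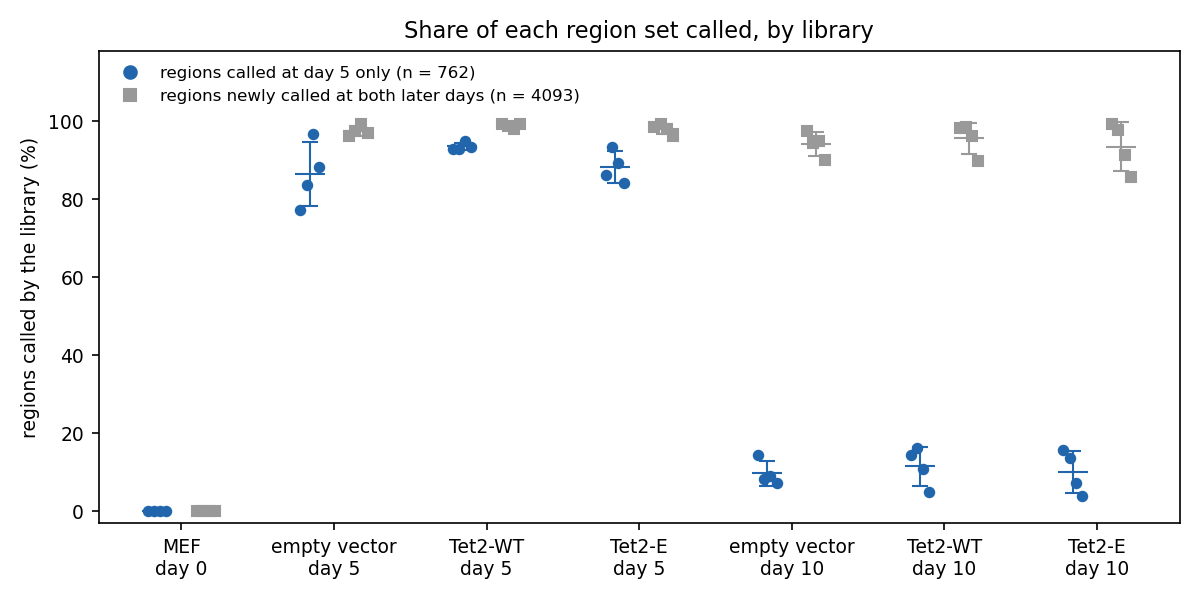
Percent of the 762 day 5-only regions (circles) and of the 4093 kept regions (squares) called by each of the 28 libraries, by group, with mean and SD of 4 libraries. Day 5-only regions were called by 77.2% to 96.6% in day 5 libraries and 4.07% to 16.1% in day 10 libraries. The high level at day 5 and the low level at day 10 follow from how they were chosen. The spread between libraries of a day is not fixed by the choice.

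A total of 15 regions had complete calls, that is 12 of 12 at day 5 and 0 of 12 at day 10. The 12 with the highest median day 5 percentile are named T1 to T12 in that order. Coordinates are in mm9, counted from 1. The remaining 3 had median folds of 5.85 to 5.96 and percentiles of 39.3 to 41.3. Gene annotation and sequence of mm9 were not used here, so the regions are given by position.

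T1: chr5:51596530-51596877
T2: chr7:94335282-94335651
T3: chr2:118050086-118050457
T4: chr16:65406079-65406524
T5: chr8:63211819-63212224
T6: chr14:92318576-92319437
T7: chr3:137145569-137146262
T8: chr16:26721462-26721858
T9: chr5:29580433-29580855
T10: chr10:17270471-17270826
T11: chr14:103436288-103436773
T12: chr8:12614001-12614480

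T1 was the highest-ranked of them, with a median day 5 fold of 8.68 at the percentile 83.0. Its summit pileups, in fragments, were 11, 13, 20 and 17 in the empty vector libraries, 23, 13, 14 and 15 with Tet2-WT and 17, 20, 14 and 20 with Tet2-E. The 3 vectors overlapped, and the summits of the 12 libraries lay within 206 bp. T2 had a median fold of 8.74 at the percentile 81.9, and its pileups were 11, 14, 17 and 15 with the empty vector, 13, 16, 23 and 18 for Tet2-WT and 11, 18, 17 and 14 for Tet2-E. T2 again overlapped between vectors. Its position was sharper, with all 12 summits within 126 bp.

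T3 had a median fold of 7.67 (percentile 70.5) and the tightest summits of the 12, within 106 bp. Its pileups were 11, 11, 12 and 15 with the empty vector, 11, 15, 13 and 14 for Tet2-WT and 15, 17, 13 and 12 for Tet2-E. T5 reached a percentile of 67.3, with pileups of 15, 20, 17 and 21 with the empty vector, 21, 17, 16 and 18 for Tet2-WT and 13, 17, 12 and 19 for Tet2-E. T5 had the highest median pileup of the 12 (17 fragments) over a higher local background than T1. T6, the widest, spanned 862 bp, and its summits were spread over 388 bp. Its pileups ranged from 9 to 18 fragments at a median percentile of 64.5.

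T7 was the region in which vectors stood furthest apart. Its pileups were 8, 8, 11 and 12 with the empty vector, 16, 16, 16 and 15 for Tet2-WT and 13, 10, 18 and 9 for Tet2-E. Empty vector and Tet2-WT did not overlap there, and Tet2-E spanned both. That was 1 of 36 pairs of vectors over the 12 regions without overlap, and it was singled out after its values were seen. Pileups are not scaled for depth, and the background pileup of the day 5 libraries was 0.821 ± 0.0557 with the empty vector and 0.913 ± 0.0875 with Tet2-WT (SD, n = 4 each).

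T8 held the highest single value, a pileup of 29 fragments in the second Tet2-E library. The other 11 libraries had 9 to 16 fragments there. T4 ranged from 8 to 19 fragments, T9 from 10 to 22, T10 from 8 to 18 and T11 from 12 to 21. T11 lay 3291 bp from another day 5-only region. T12 was the weakest, with a median fold of 5.96 at the percentile 43.2 and pileups of 15, 13, 14 and 13 with the empty vector, 14, 10, 13 and 16 for Tet2-WT and 11, 9, 10 and 18 for Tet2-E. Its percentiles ran from 3.22 in the second Tet2-E library to 77.1 in the fourth.

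**Figure D2:**
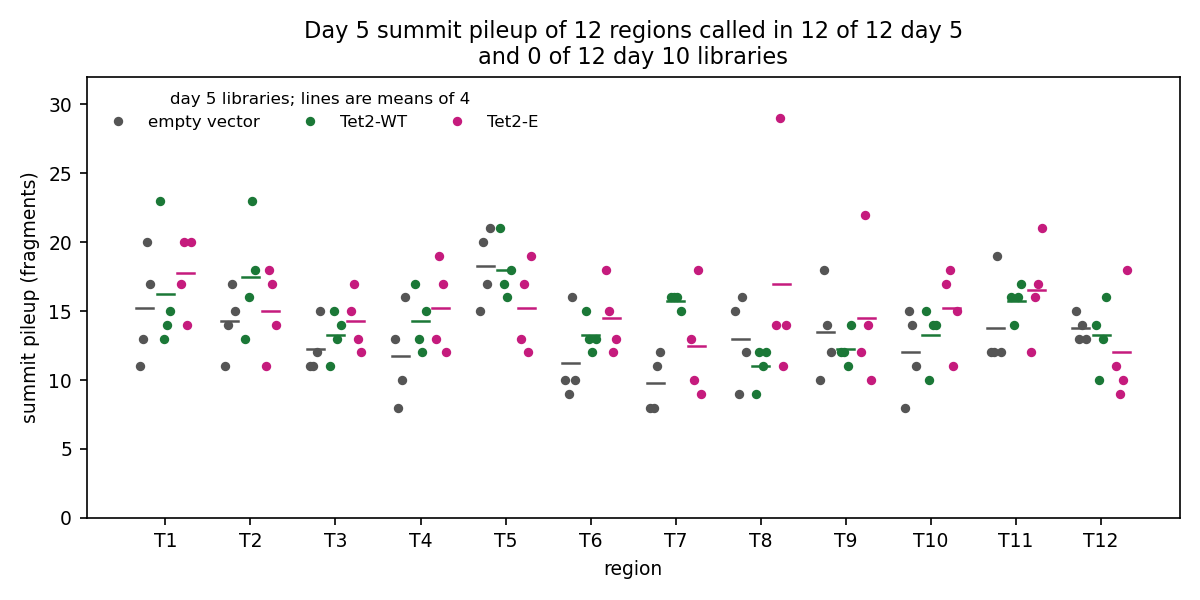
Summit pileup in fragments (vertical axis) of regions T1 to T12 in the 12 day 5 libraries, by vector, where lines are means of 4 libraries. Vectors overlap in 11 of the 12 regions, and in T7 the empty vector libraries (8 to 12) lie below the Tet2-WT libraries (15 to 16).

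Of these 12, 9 (all but T7, T8 and T12) were also among the 56 regions that stayed day 5-only on lists of equal length. Those 56 ranked higher at day 5 than the rest, as the shorter lists require, with a median percentile of 69.2 against 46.6, a median fold of 7.51 and a median pileup of 14 fragments. Of the 56, 42 were called in all 12 day 5 libraries, and 10, 18 and 28 were called in 0, 1 and 2 day 10 libraries on the full lists. The highest-ranked was chr2:53349604-53350100, called in 12 day 5 and 2 day 10 libraries, with a median fold of 9.37 at the percentile 85.9. Next came chr1:24439826-24440360, in 11 day 5 libraries and 1 day 10 library, with 9.08 at the percentile 85.0. These 2 were picked by rank after the shortened lists were seen. The other 198 of the 254 regions on lists of equal length were called on the full lists in 3 to 9 day 10 libraries (174) or in a MEF library (24), and none was a kept region.

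Day 5-only regions were narrow and of middling strength. Over the 762, the median day 5 fold was 6.27 (range 4.19 to 9.51) and the median percentile was 47.7 (range 2.75 to 88.3). Their summit pileup had a median of 12 fragments (range 9 to 23) over a local background of 0.963. Only 27 of the 762 reached the 75th percentile and 0 reached the 90th. The 4093 kept regions had a median fold of 8.24, a percentile of 77.6 and a pileup of 19 fragments in the same day 5 libraries. Regions in 3 to 9 day 10 libraries lay between the 2 sets, with a fold of 6.79, a percentile of 58.4 and a pileup of 14. Merged regions had a median width of 367 bp for day 5-only, 403 bp for intermediate and 509 bp for kept regions. A merged region spans the peaks of all libraries that call it, so this order partly follows from the choice by number of calls. The 126 regions called in 0 MEF, at most 2 day 5 and at least 10 day 10 libraries had a median of 385.5 bp. Narrow merged regions were thus not particular to the day 5-only set. Single day 5 peaks were 171.5 bp wide in day 5-only regions and 303.5 bp in kept regions. Because the sets were cut by number of calls, the gaps in fold, percentile, pileup and peak width partly follow from the choice too. Day 5 summits fell a median of 32 bp from their region's median summit in day 5-only and 30 bp in kept regions.

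**Figure D3:**
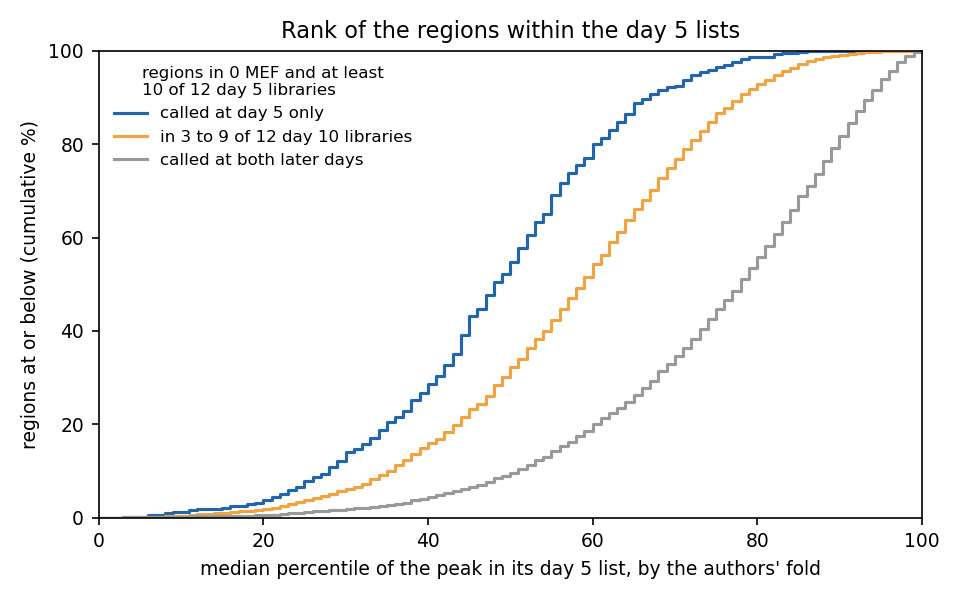
Cumulative percent of regions (vertical axis) against the median percentile of their peaks in the day 5 lists (horizontal axis), for regions called in 0 MEF and at least 10 day 5 libraries. Day 5-only regions (median 47.7) lie left of intermediate regions (58.4), which lie left of kept regions (77.6).

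Rank at day 5 went with calls at day 10. In the lowest quintile of the 9108 regions by median day 5 percentile, 370 of 1824 (20.3%) were day 5-only and 17.5% were kept. The share of day 5-only regions was 12.3%, 6.42% and 2.58% in the next 3 quintiles, and in the highest quintile it was 0.274% (5 of 1822), with 87.9% kept. Of the 762, 48.6% came from the lowest quintile. On lists of equal length the lowest quintile held 7.83% and the highest 0.461%. Fold and calls at day 5 share the same libraries and depth, and the quintiles (5 equal parts of the ranked regions) are a description with no test.

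**Figure D4:**
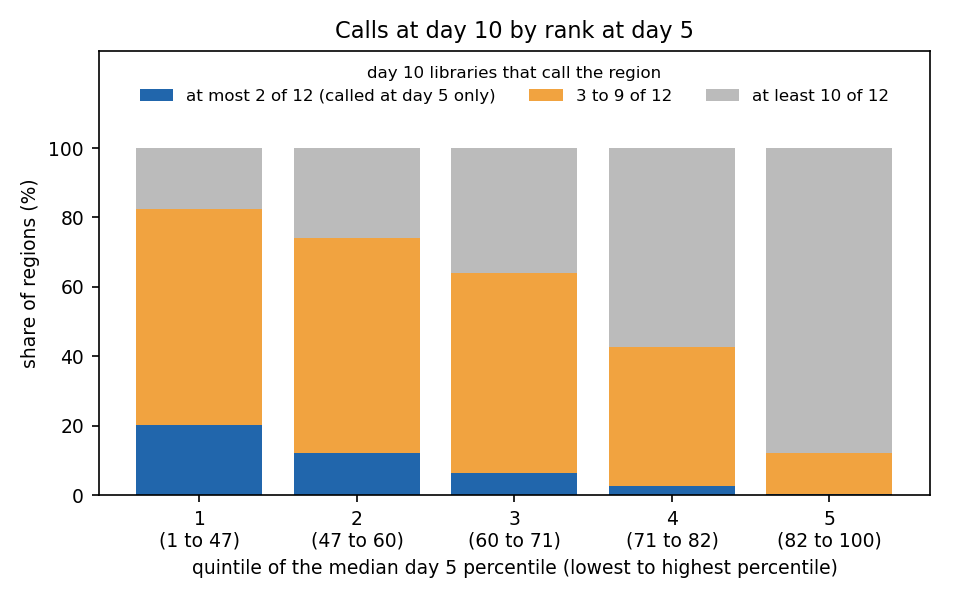
Share of regions (vertical axis, percent) called in at most 2, in 3 to 9 or in at least 10 day 10 libraries, by quintile of the median day 5 percentile (horizontal axis, lowest to highest). Day 5-only regions fall from 20.3% in the lowest quintile to 0.274% in the highest, and kept regions rise from 17.5% to 87.9%.

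The drop in depth can be set beside these values. Where a kept region was called on both days, its day 10 pileup was a median 0.703 of its day 5 pileup, and for the 630 day 5-only regions with a day 10 call the ratio was 0.696. The second ratio rests only on the 1 or 2 libraries whose pileup was high enough to be called, so the 2 ratios are not on an equal footing. The background ratio between the days was 0.587. When each region's median day 5 pileup was scaled by the background of each day 10 library, 635 of the 762 (83.3%) had a scaled pileup past the lowest p that library called in at least 10 of 12 libraries. The same held for 93.3% of regions in 3 to 9 day 10 libraries and 98.9% of kept regions. For 12 of 12 libraries the shares were 42.1%, 72.1% and 93.6%. This scaling ignores the counting spread around a mean pileup. The median day 5 pileup was also taken only over the libraries that called the region, so it leans high. In none of the 3 sets did a region pass it in at most 2 libraries. The scaling therefore does not measure how far depth set the missing day 10 calls, which was not tested. The regions in 3 to 9 day 10 libraries, by their choice called in fewer than 10, passed it in 93.3% of cases all the same.

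Calls that remained at day 10 were weak. In the 630 regions with 1 or 2 such calls, the day 10 peaks had a median fold of 5.68, a percentile of 29.0, a pileup of 8.5 fragments and a width of 114 bp. Kept regions had a percentile of 67.1 and a pileup of 13 fragments at day 10. The 2 sets were cut by their number of day 10 calls, so this gap partly follows from the choice. Day 10 summits lay a median of 45.25 bp from the day 5 summit in day 5-only regions and 40.5 bp in kept regions. Of the 331 regions with 2 day 10 calls, both came from 1 vector in 91 and from 1 replicate number in 81. The numbers expected from random pairs of libraries were not worked out, so neither count speaks for a tie to vector or replicate number.

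The vectors were compared next. The choice of regions treated the vectors alike, but it used the same calls and left out regions missing from more than 2 day 5 libraries or present in more than 2 at day 10. A region that differed strongly between vectors could not be chosen, so the contrasts cover only what the choice left. At day 5, empty vector libraries called 86.4% ± 8.15 of the 762 regions, Tet2-WT libraries 93.5% ± 0.930 and Tet2-E libraries 88.3% ± 4.08 (SD, n = 4 each). Tet2-WT exceeded the empty vector by 7.12 percentage points (2-sided exact permutation p = 0.143, adjusted p = 0.429 over 6 contrasts). Tet2-E exceeded the empty vector by 1.84 points (exact p = 0.714, adjusted p = 0.886). Tet2-E minus Tet2-WT was -5.28 points (exact p = 0.114, adjusted p = 0.429). None of the 3 differences passed the threshold of 0.05, and the smallest p that 4 against 4 libraries allow is 0.0286. On lists of equal length, where 254 regions were chosen anew, the 3 differences were 2.85, 2.76 and -0.0984 points in the same order (exact p = 0.457, 0.457 and 1). Tet2-WT minus empty vector was 3.26 points without the libraries numbered 1 and 3.86 without those numbered 2. Tet2-E minus Tet2-WT was -1.72 points without those numbered 4, and Tet2-E minus empty vector turned to -0.529 and -0.750 without those numbered 1 or 2. The kept regions leaned the same way at day 5, with Tet2-WT 1.37 points above the empty vector (exact p = 0.0857, adjusted p = 0.257 over 3 contrasts).

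The spread was visible in single regions too. Of 9144 possible day 5 calls, 969 were missing, 414 with the empty vector, 197 for Tet2-WT and 358 for Tet2-E. The empty vector called 399 regions (52.4%) in 4 of 4 day 5 libraries, Tet2-WT 582 (76.4%) and Tet2-E 440 (57.7%). Both missing calls fell in the empty vector for 51 regions, in Tet2-WT for 17 and in Tet2-E for 36. The first empty vector library called the fewest (588 of 762), from a list of 42539 peaks. These counts follow the libraries' shares and add no replicate to them.

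At day 10, empty vector libraries called 9.78% ± 3.20 of the regions, Tet2-WT libraries 11.6% ± 4.99 and Tet2-E libraries 10.2% ± 5.38 (SD, n = 4 each). The 3 differences were 1.80, 0.394 and -1.41 percentage points for Tet2-WT minus empty vector, Tet2-E minus empty vector and Tet2-E minus Tet2-WT (exact permutation p = 0.600, 0.886 and 0.743, each with an adjusted p of 0.886). A day 10 call was seen in 273 regions with the empty vector, 314 for Tet2-WT and 283 for Tet2-E. No contrast of strength within the day 5 lists passed the threshold either. The median percentile of the called regions was 47.3 ± 6.72 in empty vector libraries, 48.9 ± 3.80 in Tet2-WT libraries and 47.6 ± 3.52 in Tet2-E libraries (SD, n = 4 each), and each of the 3 contrasts had an adjusted p of 1 (exact permutation p of 0.686 to 1).

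Over all 109954 regions called in at least 2 libraries, an exact test stratified by day, with Benjamini-Hochberg adjustment, called 0 regions (0%) in each of the 3 pairs of vectors. The lowest p of this exact test over the 3 pairs was 0.000408, too high for a lone region to pass an adjustment over 109954. The 0 calls thus do not show that the vectors were alike. At an unadjusted p under 0.05 the test called 0.477% for Tet2-WT against the empty vector, 0.309% for Tet2-E against the empty vector and 0.367% for Tet2-E against Tet2-WT. None of the 762 was among these, which the rule itself fixes. A region with at most 2 missing day 5 calls and at most 2 day 10 calls cannot go below p = 0.0918 in this exact test. More Tet2-WT than empty vector libraries called 345 of the 762 regions, fewer called 183 and equally many called 234. For Tet2-E against the empty vector the counts were 289, 245 and 228, and for Tet2-E against Tet2-WT they were 213, 326 and 223. Over all regions tested, 31.3% were called by more and 22.0% by fewer Tet2-WT than empty vector libraries, beside 45.3% and 24.0% of the 762. For Tet2-E against the empty vector, 25.4% of all regions were called by more and 27.0% by fewer libraries, beside 37.9% and 32.2% of the 762. For Tet2-E against Tet2-WT the shares were 20.5% and 31.8%, beside 27.95% and 42.8%. These counts join the calls of both days. They follow the libraries' shares, add no replicate to them and were not tested as a set.

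The share of the 762 called by a library moved with the length of its list. These shares come from the calls that chose the regions, and a longer list has room for more weak regions of any set. The correlations below therefore need not be particular to day 5-only regions, and those of other sets were not worked out. Kept regions were called by 85.6% in the shortest day 10 list (27809 peaks) and 98.4% in the longest (50552 peaks). Over the 12 day 5 libraries, Pearson's r was 0.848 (permutation p = 0.00034, adjusted p = 0.000453 over 4 relations) and Spearman's rho was 0.884 (permutation p = 0.00034, adjusted p = 0.000453). Without the 2 libraries farthest from the median length, r was 0.828. Over the 12 day 10 libraries r was 0.942 and rho 0.967 (permutation p = 1e-05 for both, the smallest that 100000 permutations give, adjusted p = 4e-05), and r was 0.943 without the 2 farthest. Against the background pileup, r was 0.371 at day 5 (permutation p = 0.236, adjusted p = 0.236, rho = 0.340 with permutation p = 0.274 and adjusted p = 0.274, r without the 2 farthest 0.206). At day 10 it was 0.870 (permutation p = 0.00013, adjusted p = 0.00026, rho = 0.900 with permutation p = 0.00021 and adjusted p = 0.00042, r without the 2 farthest 0.867). Within a vector there are 4 libraries a day, too few for a correlation. No contrast of list length or background between vectors passed the threshold (lowest adjusted p = 0.882 over 12 contrasts, exact permutation tests).

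**Figure D5:**
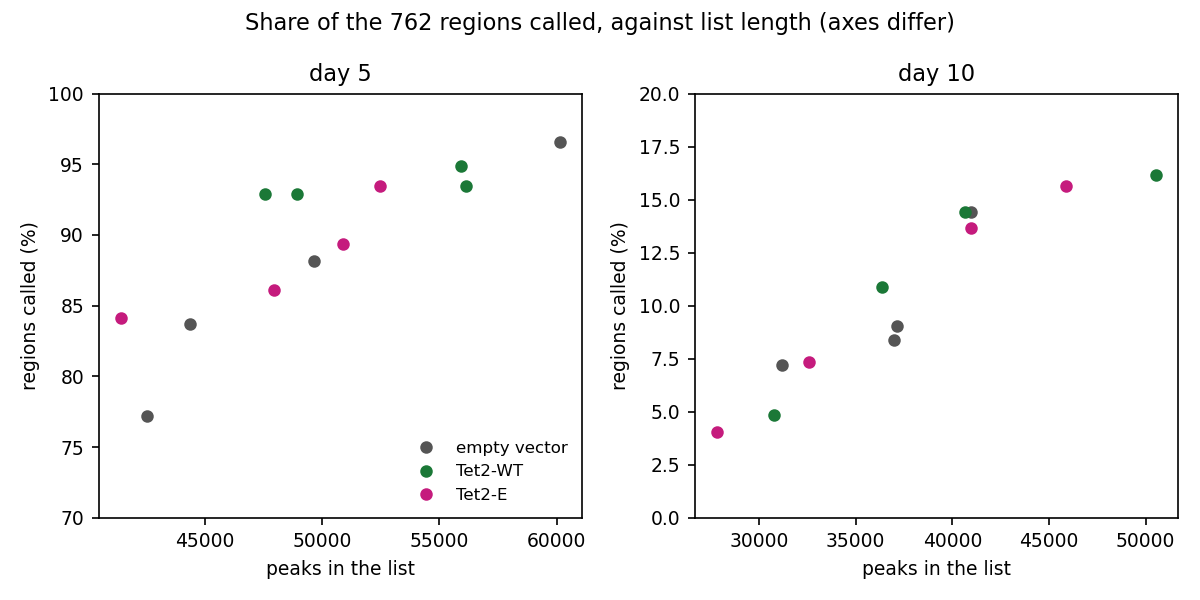
Percent of the 762 regions called (vertical axis) against the number of peaks in the list (horizontal axis) for the 12 day 5 libraries (left) and the 12 day 10 libraries (right), by vector, with different axes. Longer lists called more of the regions on both days, with r = 0.848 at day 5 and 0.942 at day 10.

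Day 5-only regions were scattered over the genome. The largest numbers were on chromosomes 2 (71 regions), 1 (64), 3 (59) and 10 (59), and the smallest was on chromosome 19 (11). As a share of the regions newly called at day 5, which was 8.37% over all chromosomes, the X chromosome stood highest with 13.8% (27 of 195), followed by chromosome 15 with 11.6% (39 of 336) and chromosome 10 with 11.4% (59 of 518). Chromosome 19 was lowest with 5.07% (11 of 217). These shares rest on few regions each and were not tested.

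Few day 5-only regions lay near another one, and the same held for the other sets. The median distance to the nearest other one was 947878 bp, and 724 of the 762 had none within 50 kb. A day 5-only region lay within 50 kb of 4.99% of the 762, 5.06% of regions in 3 to 9 day 10 libraries and 4.74% of kept regions. The remaining 38 formed 19 pairs. The closest pair lay 389 bp apart at chr6:145549897-145550968, and the next at chr10:25648263-25649609 spanned 1347 bp. A pair at chr12:82147793-82156725 spanned 8933 bp and had one of the higher median percentiles of a pair, 74.8. No kept region and no region called in at least 10 day 10 libraries lay inside these 3 pairs.

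Day 5-only regions lay farther from other open regions than kept regions did by the median, while the shares with a close neighbour were nearer to each other. The median distance to a region called in at least 10 of 12 day 10 libraries was 44751 bp for day 5-only and 30628 bp for kept regions, and to a kept region it was 170713 and 128140 bp. To a region called in all 28 libraries it was 127926 and 89299 bp. A kept region lay within 50 kb of 22.0% of day 5-only and 27.6% of kept regions. These distances are descriptions with no test. A kept region lay within 10 kb of 55 day 5-only regions (7.22%) and of 6.72% of the kept regions themselves. A region called in at least 10 of 12 day 10 libraries lay within 10 kb of 152 (19.9%), against 22.1% of kept regions, and within 1 kb of 28 (3.67%), against 3.20%. A region called in all 4 MEF libraries lay within 10 kb of 208 (27.3%), against 29.2% of kept regions. For regions called in all 28 libraries the shares were 8.01% and 8.72%.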

How the data were processed

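ATAC-seq peaks of 28 libraries (7 groups of 4, from the labels) were analysed. The authors deposited 1 MACS2 peak list per library, and the submitters' processing notes name Bowtie2, SAMtools, bedtools, MACS2 and the build mm9. The sources used here do not give versions, settings or any shift of cut sites. The deposited lists give each peak's fold (a ratio to local background), its -log10 p and -log10 q (lowest -log10 q 2.00), and a score of 10 times the authors' -log10 q. These are the authors' values for a peak in its own list and served only to rank and filter within it.

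Peaks on 20 chromosomes were kept (105 to 207 peaks per library on unplaced sequences were left out), and overlapping peaks (1 bp) were merged. Summit pileups and backgrounds were solved from fold and -log10 p under the caller's Poisson model. Whole-number pileups resulted for 100% of peaks (tolerance 0.0002 in -log10 p). The commonest background of a library served as its relative depth, since read totals were not used. It is no read count and depends on the fragment length set in the caller, which is not given.

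Libraries were compared by 2-sided exact permutation tests, regions by an exact conditional test stratified by day, both with Benjamini-Hochberg adjustment and a threshold of 0.05. The region test and the pileup solution were tested on simulated data. Named regions were the 12 of highest median percentile among those called in 12 of 12 day 5, 0 of 12 day 10 and 0 MEF libraries. The regions, lists and tests were chosen with earlier results of these data known. Alternatives were lists of equal length, a stricter q, other overlap rules, other limits and each replicate number left out. The reference tables given were of GRCm38 and the peaks of mm9, so the planned gene lists and motif search were not analysed here. Python 3.11.15, numpy 2.4.6, pandas 2.3.3, scipy 1.17.1 and matplotlib 3.10.9 were used.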

Additional observations from a re-analysis of the deposited data

How the results depend on the processing

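The 762 regions became 254 on lists of equal length (56 of the 762 shared), 15 under limits of 12 of 12 and 0 of 12, and 1852 under at least 9 and at most 3. A -log10 q of at least 3 gave 752 (706 shared), a summit within 100 bp gave 591 (454 shared), and a cover of at least 50% of the region gave 943, with only 36 of the 762 shared. Leaving out 1 replicate number, with limits of at least 8 and at most 1 of 9 libraries, gave 438 (without number 3) to 756 regions, and 464 without number 4. Without the 3 day 10 libraries numbered 4, an alternative added after seeing the data, 969 regions qualified. The gap in median percentile between kept and day 5-only regions was 30.3 points and 21.98 on lists of equal length, 14.1 with the 50% cover and 22.5 under 12 of 12 and 0 of 12. The day 5-only share of the lowest quintile was 7.83% on lists of equal length and 23.98% by -log10 q, and that of the highest quintile was 0% by -log10 q. The cause of these shifts was not tested, beyond the shorter lists and other limits by construction.

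Over 96 alternative values of the 9 vector contrasts, 82 kept their direction and 14 reversed. The 82 include a replicate block value for each of the 9 contrasts. A replicate block changes only the p, so these kept their direction by construction. No p passed 0.05 (lowest 0.0571, adjusted 0.343 to 1), but with 3 against 3 libraries none could go below 0.1. At day 5, Tet2-WT minus empty vector was 2.85 points on lists of equal length and ranged from 3.26 to 6.16 with 1 number left out. Tet2-E minus Tet2-WT there was -0.0984 on lists of equal length and ranged from -4.61 to -1.72. Tet2-E minus empty vector at day 5 ranged from -0.750 to 4.38 points with 1 number left out. At day 10, Tet2-WT minus empty vector was -2.17 on lists of equal length and ranged from -0.980 to 3.38 with 1 number left out, and Tet2-E minus empty vector was -2.76 and ranged from -1.15 to 2.74. Tet2-E minus Tet2-WT at day 10 was 0.423 with the summit rule and ranged from -2.38 to 1.14. For rank, Tet2-WT minus empty vector was 0.00517 on lists of equal length, Tet2-E minus empty vector was -0.365 with the 50% cover, -0.757 with the summit rule and ranged from -2.98 to 2.38, and Tet2-E minus Tet2-WT was 0.668 on lists of equal length and 6.10 under 12 of 12 and 0 of 12. Under those limits the shares called are fixed and gave no contrast. The test over all regions called 0 under every alternative run. Its lowest p was 0.000408 without and 0.00781 with a replicate block, too high for a lone region to pass the adjustment. These 0 calls do not show that the vectors were alike.

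Libraries of the same replicate number were at most weakly alike (24 same-number correlations from -0.0139 to 0.0902, 11 best matched by their own number among 4 candidates). Day 10 calls of the 762 regions fell with the number, from 339 and 291 to 208 and 123 for numbers 1 to 4. Whether the numbers mark libraries handled together was not tested. With a replicate block the exact sign-flip p for Tet2-WT minus empty vector at day 5 was 0.25 for the same difference of 7.12 points (adjusted p = 0.75), where 4 pairs allow no less than 0.125. The region test with a replicate block called 0, and 88, 30 and 56 regions had an unadjusted p under 0.05 for Tet2-WT and Tet2-E against the empty vector and Tet2-E against Tet2-WT. The day 10 calls in day 5-only regions rested on a median of 8.5 fragments, which limits what their absence shows.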
